A study of Homo sapiens with 8 samples.

Results

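The 10 genes described here mark where a cell stands between an epithelial and a mesenchymal state, and their histone H3 lysine 27 acetylation (H3K27ac) was read from the peak lists of 6 chromatin immunoprecipitation sequencing (ChIP-seq) libraries. CDH1, ESRP1 and GRHL2 are the epithelial members, and CDH2, VIM, ZEB1, ZEB2, SNAI1, SNAI2 and TWIST1 the mesenchymal members. They were taken by name, out of 20033 protein-coding genes in the annotation, and a locus was defined as the gene body with 50 kb added on either side. Every peak touching a locus was a member, which gave 147, 137 and 135 peaks in WT 1, 2 and 3, of 93567, 92891 and 86163 peaks in those lists. In CREBBP-KO 1, 2 and 3 there were 173, 175 and 149 such peaks, of 111697, 105017 and 99008.

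The cells are HCEC-1CT, a line of human colonic epithelial cells, in a WT and a CREBBP-KO version with 3 libraries each. CREBBP is a histone acetyltransferase that, with its paralogue EP300, places H3K27ac. The knockout was made by transfecting guide RNAs into cells carrying inducible Cas9 and growing single cells. According to the methods the line used for ChIP-seq was monoclonal, while pools of several clones and of parental subclones are described elsewhere, and which applies to these libraries is not given, so differences between founder cells and differences due to the gene cannot be told apart. The series text describes the 3 libraries of a genotype as separate cell populations; the lists hold no reads, so neither the depth nor the loss of CREBBP could be checked in them.

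Epithelial cells hold together through E-cadherin, the product of CDH1, while the splicing factor ESRP1 and the transcription factor GRHL2 maintain epithelial transcripts and promoters. In the mesenchymal state N-cadherin (CDH2) and the intermediate filament vimentin (VIM) are used instead, and the repressors ZEB1, ZEB2, SNAI1 (Snail) and SNAI2 (Slug) bind E-box sequences at epithelial genes, with the helix-loop-helix factor TWIST1 acting beside them. H3K27ac is found at active promoters and enhancers, so a peak marks acetylated chromatin and is not a measure of RNA. Less acetylation in every cell and loss of the mark in some of the cells cannot be told apart in these libraries.

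Heights are given in 2 ways. The fold is the authors' linear ratio of signal over local background at a peak, and the percentile is the rank of that fold within its own list, where 100 is the highest peak of the library. A promoter peak overlapped the 1 kb on either side of a protein-coding transcript start of the gene, and a distal peak had its summit more than 1 kb from every annotated transcript start.

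The labelled cell type was checked with marker genes before the members were compared. Of 13 markers of colonic epithelium, 3 had a promoter peak in all 6 libraries (EPCAM, KRT8 and MUC2) and 8 had none, among them the intestinal regulators CDX1, CDX2 and HNF4A and the brush border gene VIL1. The mean percentiles of those 3 ran from 19.5 to 68.5, and EPCAM stood at 0.175, 7.27 and 8.36 in WT. The remaining 2 differed between genotypes. LGALS4 had a peak in every WT library, at 52.5, 47.9 and 45.3, and in no CREBBP-KO library. KRT18 had one in 3 WT and 2 CREBBP-KO libraries. All 9 fibroblast markers had a promoter peak in all 6 libraries, with mean percentiles from 75.03 to 99.3, and of 7 blood and endothelial markers only CD68 did. The promoter acetylation of these markers goes against the colonic epithelial label of the line in both genotypes, and its source was not tested. Some other epithelial genes, in lists described below, did carry a promoter peak in all 6 libraries. They were 9 of 20 junction and keratin genes and 5 of 11 epithelial regulators, with median percentiles of 81.0 and 90.4. By the rank test described below, the only tested promoter of the colonic list (MUC2) was higher in CREBBP-KO, as were CD68 and 2 of 9 fibroblast promoters, while 1 fibroblast promoter (FAP) was lower, where 26.9% of all tested promoter intervals of protein-coding genes were higher and 8.32% lower. By percentile, the MUC2 promoter peak was under a fold of 5, the minimum of that test, in every WT library.

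The 3 epithelial members had no promoter peak in any of the 6 libraries, and the 7 mesenchymal members had one in all 6. Among 19689 protein-coding genes, 61.7% had a promoter peak in all 6 libraries and 32.3% had none. Where a list holds no peak, the signal did not pass the caller's threshold, and as the lists give no read counts no upper limit on it can be given. The plot of promoter percentiles by gene shows every library.

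**Figure D1:**
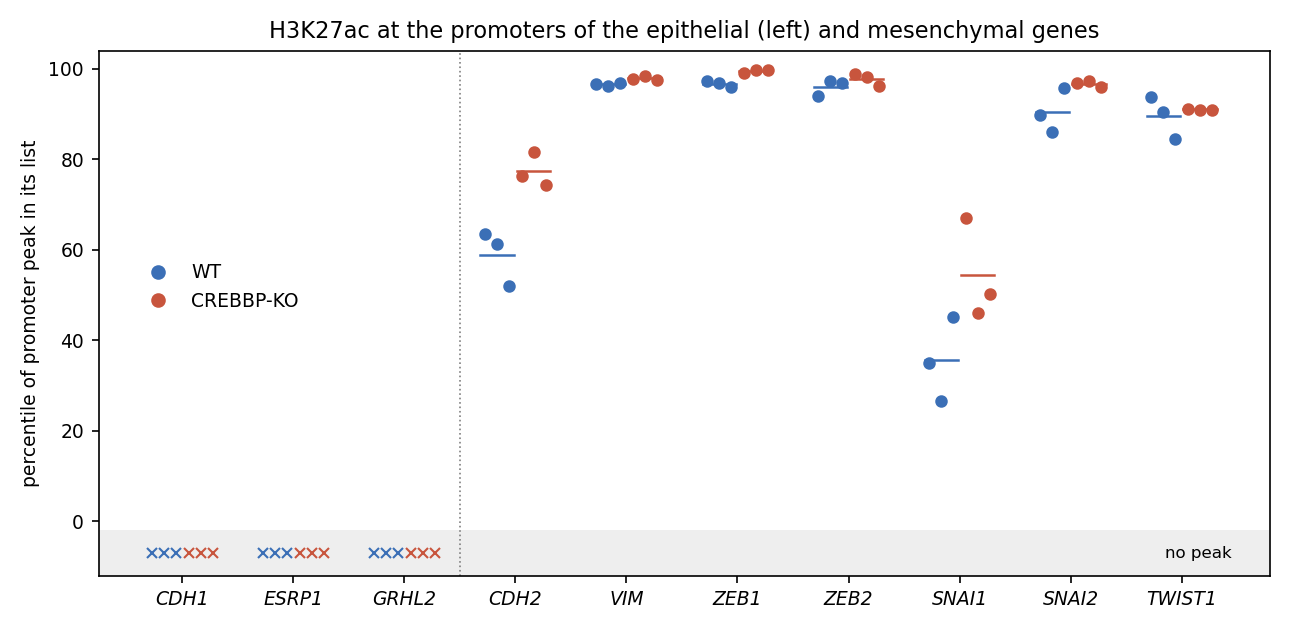
Percentile of the highest H3K27ac promoter peak within its own list (vertical axis) for the 10 genes, 1 point per library, WT in blue and CREBBP-KO in red, with horizontal lines at the means of 3 libraries and crosses in the grey band for libraries without a promoter peak. The 18 crosses belong to CDH1, ESRP1 and GRHL2, and the mesenchymal points run from 26.5 (SNAI1, WT 2) to 99.8 (ZEB1, CREBBP-KO 2).

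The sequences of the canonical starts of 3 mesenchymal members are printed because their promoters carried the peaks compared below. They run from 250 bases before to 50 bases after the start and come from RefSeq (GRCh38.p14). Windows were examined for only 4 of the 10 members (CDH2, VIM, ZEB1 and ZEB2). The absence of the other members here does not show that RefSeq lacks their promoters. Capitals mark the E-box CAGGTG or its reverse complement CACCTG, the letters bound by ZEB and SNAI proteins.
ZEB1, chr10:31318966-31319265, plus strand: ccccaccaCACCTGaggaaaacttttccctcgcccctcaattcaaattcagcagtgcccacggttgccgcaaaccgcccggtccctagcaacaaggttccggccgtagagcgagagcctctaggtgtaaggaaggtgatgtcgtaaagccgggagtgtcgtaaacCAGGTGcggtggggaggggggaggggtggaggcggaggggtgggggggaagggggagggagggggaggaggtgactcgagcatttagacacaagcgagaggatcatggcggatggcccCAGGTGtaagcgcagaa
VIM, chr10:17227991-17228290, plus strand: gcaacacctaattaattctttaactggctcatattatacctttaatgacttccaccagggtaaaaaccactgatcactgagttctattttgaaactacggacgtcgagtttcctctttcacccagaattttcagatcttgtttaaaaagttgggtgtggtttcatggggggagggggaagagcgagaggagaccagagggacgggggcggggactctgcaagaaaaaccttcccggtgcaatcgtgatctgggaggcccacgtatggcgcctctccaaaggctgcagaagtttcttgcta
CDH2, chr18:28177081-28177380, minus strand: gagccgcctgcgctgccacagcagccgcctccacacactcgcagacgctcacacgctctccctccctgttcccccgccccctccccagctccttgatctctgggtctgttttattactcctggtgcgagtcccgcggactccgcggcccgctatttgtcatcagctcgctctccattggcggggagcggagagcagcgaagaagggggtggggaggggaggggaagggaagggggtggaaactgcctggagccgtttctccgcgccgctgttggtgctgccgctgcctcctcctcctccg
The ZEB1 window held 3 such E-boxes, while the CDH2, VIM and canonical ZEB2 windows held 0. Of 35116 RefSeq promoter windows of this length, 20.6% held at least 1. A match says only that these letters are present.

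ZEB1 had the highest mean promoter fold of the 10 loci in both genotypes, although ZEB2 stood above it in WT 2, and VIM and ZEB2 did in WT 3. Its fold was 19.2, 17.6 and 17.4 in the WT libraries and 25.8, 33.4 and 32.2 in the CREBBP-KO libraries. All KO values stood above all WT values, as did the percentiles, at 97.3, 96.9 and 96.0 against 99.1, 99.8 and 99.7 (difference of means 2.79; by a two-sided exact permutation test p = 0.1, and 3 libraries against 3 allow no smaller value). The peak lay over the first intron of the gene, with its summit 0.902 kb after the canonical start.

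CDH2, the gene of N-cadherin, had a weaker promoter peak, whose difference between genotypes was larger than that of ZEB1 in percentile (18.5 against 2.79) and smaller in fold (2.60 against 12.4). Its fold was 5.61, 5.31 and 4.63 in WT and 7.02, 9.05 and 7.27 in CREBBP-KO. The percentiles rose from 58.96 ± 6.13 (SD, n = 3) to 77.4 ± 3.71 (SD, n = 3), with no overlap (exact permutation test, p = 0.1). The peak was also longer in the KO libraries, at 3117, 3199 and 2857 bases against 2175, 1690 and 1653.

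VIM, which encodes vimentin, stood at percentiles 96.6, 96.2 and 97.0 in WT and 97.9, 98.4 and 97.6 in CREBBP-KO. The genotypes did not overlap (exact permutation test, p = 0.1), and the difference of means was 1.36. The fold went from 17.8 ± 0.987 (SD, n = 3) to 22.4 ± 1.60 (SD, n = 3).

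SNAI2, or Slug, had percentiles of 89.8, 86.0 and 95.7 in WT and 97.0, 97.2 and 95.95 in CREBBP-KO. The lowest KO library was just above the highest WT library (exact permutation test, p = 0.1), and the difference of means was 6.19, or 3.93 without WT 2. SNAI1, or Snail, had the lowest promoter of the mesenchymal members, at percentiles 35.0, 26.5 and 45.1 in WT and 66.9, 46.0 and 50.2 in CREBBP-KO. These did not overlap either (exact permutation test, p = 0.1), although the SNAI1 fold did, with 3.55, 3.22 and 4.13 in WT and 5.38, 3.87 and 4.13 in CREBBP-KO (exact permutation test, p = 0.3). With the same number of peaks taken from each list the percentiles of SNAI2 and SNAI1 overlapped (exact permutation test, p = 0.2 and 0.3).

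The percentiles of ZEB2 and TWIST1 overlapped between genotypes. ZEB2, the paralogue of ZEB1, stood at 94.1, 97.4 and 96.8 in WT and 98.8, 98.1 and 96.3 in CREBBP-KO (exact permutation test, p = 0.3), although its fold did not overlap, with 15.3, 18.29 and 18.33 in WT and 24.0, 23.1 and 19.8 in CREBBP-KO (exact permutation test, p = 0.1). TWIST1 stood at 93.7, 90.5 and 84.4 in WT and within 91.03 ± 0.129 (SD, n = 3) in the KO libraries (exact permutation test, p = 0.7), and without WT 3 the difference of means turned from 1.501 to -1.06.

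The KO percentile was thus above the WT percentile without overlap for 5 of the 7 mesenchymal promoters, and below it for 0, or for 3 of the 7 with lists of equal length. Over the 12147 protein-coding genes with a promoter peak in all 6 libraries, 45.0% were higher in this way and 7.71% lower. The median promoter percentile of those genes was 87.4 in WT and 91.2 in CREBBP-KO, so a rise in promoter percentile was common in these libraries. The KO lists were longer than every WT list, and the part of list length in the values over all genes was not tested. The order of mean KO percentiles was ZEB1, VIM, ZEB2, SNAI2, TWIST1, CDH2 and SNAI1; VIM and ZEB2 overlapped, as did ZEB2 and SNAI2.

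The median promoter percentile of the epithelial members minus that of the mesenchymal members, with a gene without a promoter peak counted as 0, was -93.7, -90.5 and -95.7 in WT and -96.96, -97.2 and -95.95 in CREBBP-KO. The difference moved by -3.41 points in the KO libraries, with no overlap (exact permutation test, p = 0.1), and since all 3 epithelial genes are at 0 it moved with the mesenchymal promoters alone. Without WT 2 the move was -1.99, and with lists of equal length it was -3.13 and the libraries overlapped (exact permutation test, p = 0.2). In fold, the same difference was -15.0, -12.5 and -17.1 in WT and -19.2, -20.9 and -19.3 in CREBBP-KO (exact permutation test, p = 0.1).

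The loci also differed in how densely they were covered. The 3 epithelial loci, 641.9 kb in all, held 8, 10 and 8 peaks in WT and 12, 15 and 12 in CREBBP-KO, which covered 2.43% ± 0.148 (SD, n = 3) and 2.65% ± 0.571 (SD, n = 3) of the sequence. The 7 mesenchymal loci, 1429.1 kb, held 139, 127 and 127 peaks in WT and 161, 160 and 137 in CREBBP-KO, covering 18.3% ± 0.934 (SD, n = 3) and 17.5% ± 1.56 (SD, n = 3). Windows made in the same way over all protein-coding genes had a median of 4.98 peaks per 100 kb, and the share of genes with a lower density was 9.61% for GRHL2, 26.1% for CDH1, 36.3% for ESRP1, 94.6% for ZEB2 and 99.5% for ZEB1. The maps of peaks by distance from the start show 6 of the loci.

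**Figure D2:**
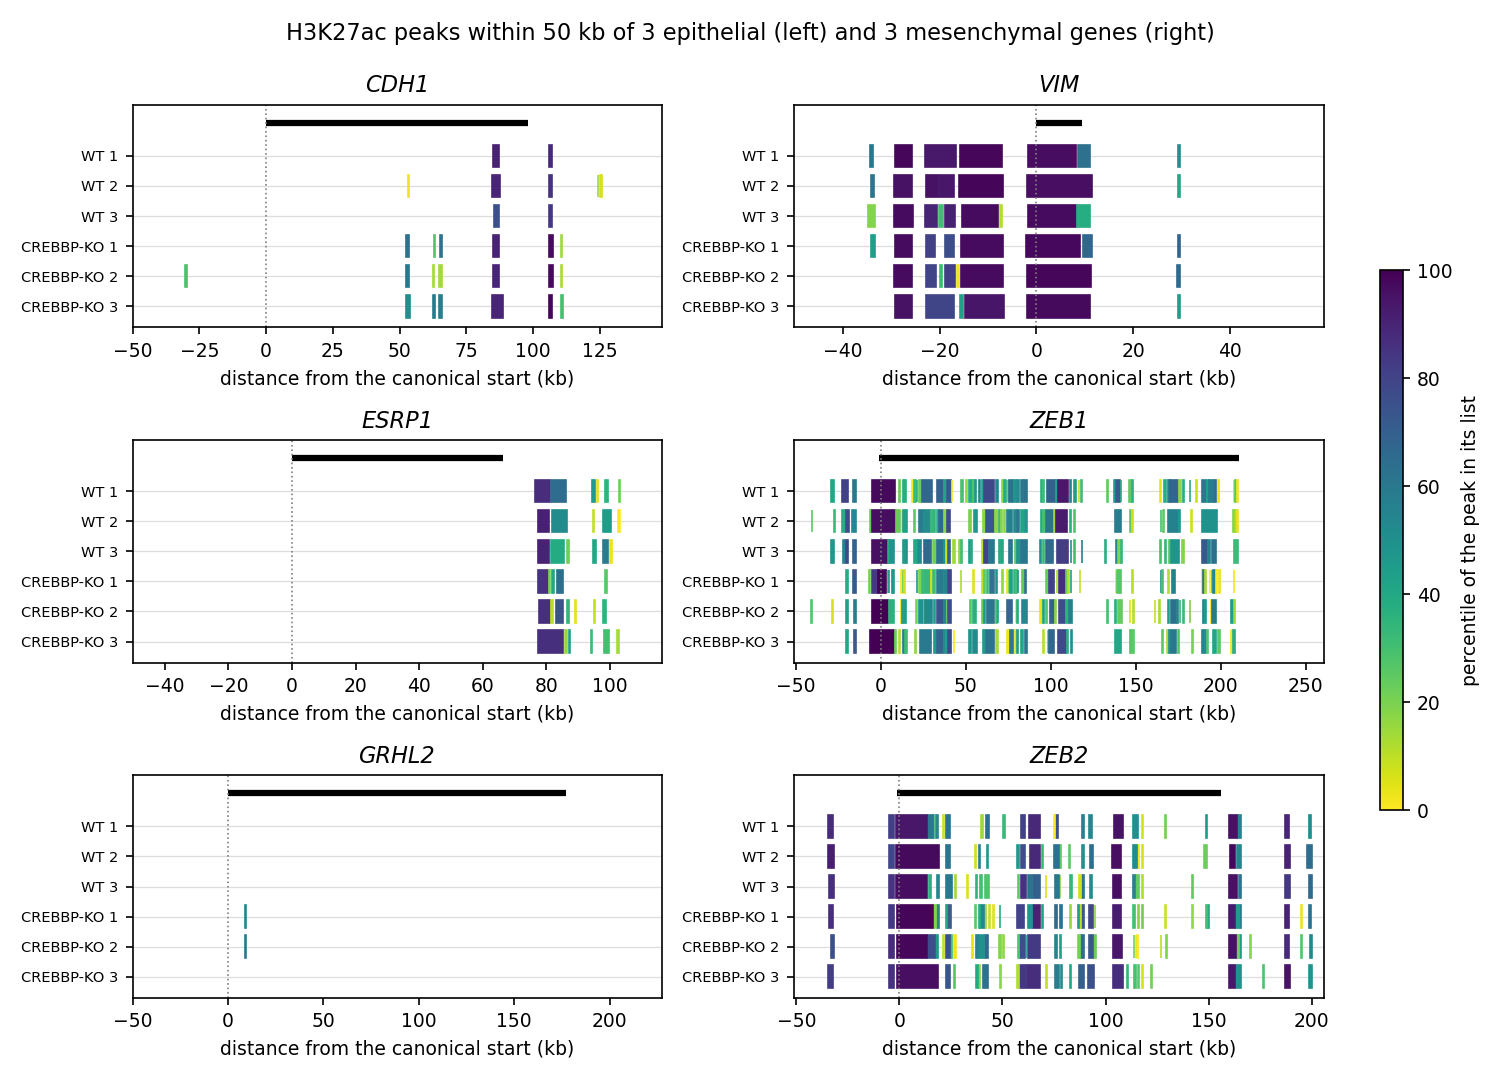
H3K27ac peaks by distance from the canonical start in kb (horizontal axis, gene direction to the right) in each of the 6 libraries (rows) for CDH1, ESRP1 and GRHL2 on the left and VIM, ZEB1 and ZEB2 on the right, coloured by the percentile of the peak in its list, with the gene body as a black bar and a dotted line at the start. No epithelial start carried a peak, GRHL2 had 1 peak in each of 2 CREBBP-KO libraries, and peaks were spread along the ZEB1 gene body.

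At GRHL2 (chr8:101492439-101669726, plus strand) the WT lists held 0 peaks in 277.3 kb. CREBBP-KO 1 and 2 each held 1, in the first intron at 9.07 kb from the start, at percentiles 54.1 and 60.1, and CREBBP-KO 3 held 0 (exact permutation test on the counts, p = 0.4). At ESRP1 (chr8:94641074-94707466, plus strand) there were 6, 5 and 6 peaks in WT and 5, 7 and 6 in CREBBP-KO, and every one lay in or at the start of the neighbouring gene DPY19L4. The gene body of ESRP1 itself held none. The highest of these intervals, 79.0 kb from the start of ESRP1 and at a start of DPY19L4, was not called (rank shift -0.39 ± 0.18, SE; limma, adjusted p = 0.0824), although with a fold minimum of 10 it passed as lower, at -0.86.

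CDH1 (chr16:68737292-68835537, plus strand), the gene of E-cadherin, had 2, 5 and 2 peaks in WT and 6, 7 and 6 in CREBBP-KO (exact permutation test, p = 0.1). Both of its intervals found in all 6 libraries lay at other transcript starts. The first was in intron 13, 86.5 kb from the start, at a non-coding transcript, and its percentiles of 90.8, 89.5 and 75.5 in WT and 90.3, 89.3 and 89.7 in CREBBP-KO overlapped. The second lay beyond the gene at a start of TANGO6, with percentiles of 89.0, 85.9 and 84.3 in WT and 96.95, 97.6 and 98.5 in CREBBP-KO, and it rose in rank by 1.09 ± 0.17 (SE; limma, adjusted p = 5.64e-05).

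Inside CDH1, introns 2 and 3 held 3 low peaks that were found in every KO library. The one at 52.8 kb had percentiles of 63.0, 60.6 and 51.3 in CREBBP-KO and 2.61 in WT 2, and was missing from WT 1 and WT 3. The peaks at 62.9 kb and 65.5 kb were missing from all 3 WT lists, with percentiles of 27.6, 13.8 and 59.7 and of 61.9, 13.7 and 57.5 in CREBBP-KO. All had a fold under 5 in every library, so none entered the rank test. Over the 10 loci, 6 of 195 merged intervals were found in all 3 KO and no WT libraries and 2 in all 3 WT and no KO libraries, where 2.66% and 1.08% of all 143679 merged intervals were.

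More peaks without overlap were found in CREBBP-KO for 4 of the 10 loci, which were CDH1, CDH2, SNAI1 and SNAI2, and fewer for 0. Of 20033 protein-coding windows, 19.0% were higher in this way and 1.73% lower. CDH2 (chr18:27932879-28177946, minus strand) went from 12, 10 and 11 peaks in WT to 16, 22 and 21 in CREBBP-KO (exact permutation test, p = 0.1). SNAI1 (chr20:49982980-49988886, plus strand) went from 8, 7 and 5 to 10, 11 and 10, and SNAI2 (chr8:48917598-48921740, minus strand) from 7, 9 and 6 to 12, 11 and 10 (exact permutation test, p = 0.1 for both). The SNAI1 counts overlapped with a flank of 25 kb, where the difference of means was 0.333 against 3.67, and those of SNAI2 with a flank of 25 kb, with a -log10 q of at least 5 and with lists of equal length, where it was 2.0, 1.33 and 1.33 against 3.67.

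The other mesenchymal loci overlapped in their counts. VIM (chr10:17228241-17237593, plus strand) had 7, 7 and 9 peaks in WT and 8, 8 and 6 in CREBBP-KO. TWIST1 (chr7:19020991-19117636, minus strand) had 16, 17 and 13 in WT and 13 in each KO library, and ZEB2 had 26, 25 and 31 in WT and 41, 38 and 29 in CREBBP-KO. ZEB1 (chr10:31318495-31529814, plus strand) showed no such gain, with 63, 52 and 52 peaks against 61, 57 and 48, and its peaks covered less sequence in CREBBP-KO, at 57.5, 74.8 and 79.7 kb against 98.8, 98.0 and 84.9 kb in WT (exact permutation test, p = 0.1). Covered sequence rose without overlap at CDH1 (mean 3.99 to 7.84 kb), CDH2 (17.4 to 25.3 kb) and SNAI1 (13.8 to 15.8 kb). The share of such differences over all genes was not computed.

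Peak ranks were compared over 34847 merged intervals that had a fold of at least 5 in all 3 libraries of a genotype and a peak in all 6. An interval could pass through 1 genotype alone, and its shift is then not independent of the filter. The rank of each interval among the tested intervals of a library was turned into a normal score. A shift is CREBBP-KO minus WT, and 1 unit is 1 SD of these scores. Percentiles, unlike the shifts, refer to the whole list. Of the 195 intervals in the 10 loci, 44 passed this filter, 41 of them in mesenchymal loci; 7 were higher in CREBBP-KO and 11 lower (limma, adjusted p under 0.05), where 18.6% of all tested intervals were higher and 18.7% lower. The plot of rank shifts gives all 44.

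**Figure D3:**
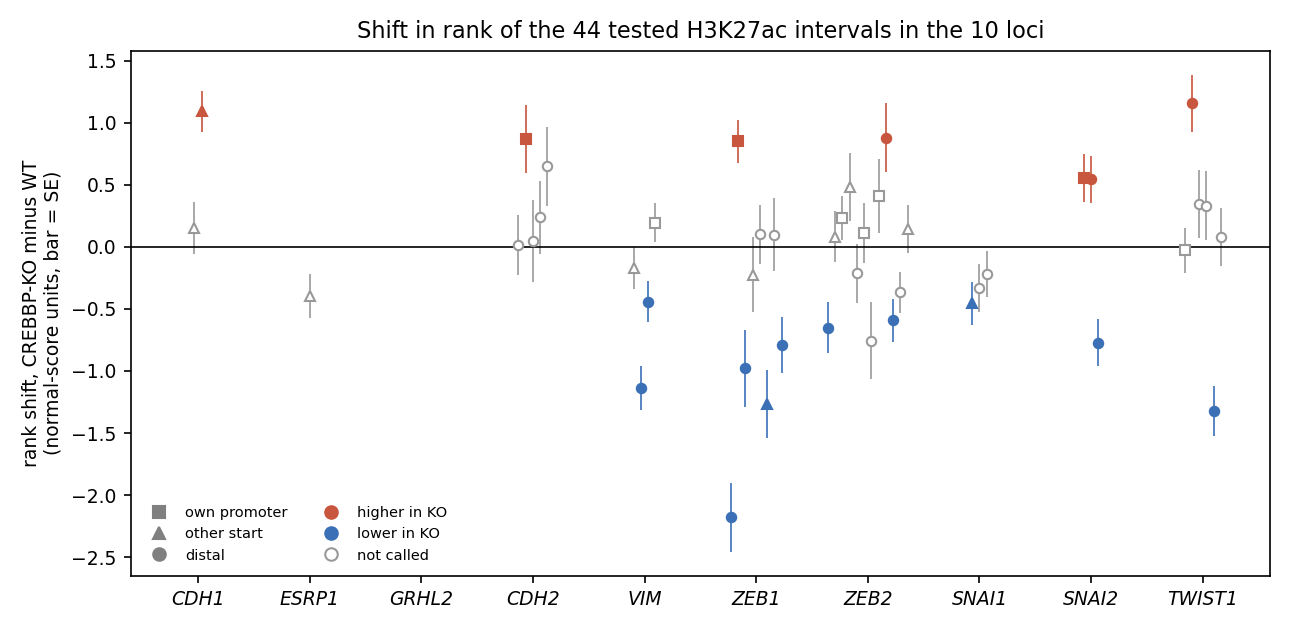
Shift in rank, CREBBP-KO minus WT, in normal-score units (vertical axis) for the 44 tested intervals by locus, with bars of 1 SE, squares for promoters of the gene itself, triangles for other transcript starts and circles for distal intervals. Red marks intervals called higher and blue those called lower. The lowest is the distal interval upstream of ZEB1 at -2.18, and no promoter of a member is blue.

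Of 8 tested promoter intervals of the members, limma called 3 higher and 0 lower (0 also at an unadjusted p under 0.05), against 26.9% and 8.32% of 10090 tested promoter intervals of protein-coding genes. The 8 include 3 intervals of ZEB2, while the set of all genes takes only the highest interval of each gene. The ZEB1 promoter shifted by 0.85 ± 0.18 (SE; limma, adjusted p = 0.000839). The CDH2 promoter shifted by 0.87 ± 0.27 (SE; limma, adjusted p = 0.0162), and without CREBBP-KO 2 its shift of 0.69 was no longer called. That promoter passed the fold filter through CREBBP-KO alone, as its fold was 4.63 in WT 3. The SNAI2 promoter shifted by 0.56 ± 0.19 (SE; limma, adjusted p = 0.0270), and this call held only when WT 3 was left out: without WT 1, WT 2, CREBBP-KO 1, CREBBP-KO 2 or CREBBP-KO 3 the shift was 0.49, 0.36, 0.55, 0.51 or 0.60 and not called. Without a trend in limma it was not called either (adjusted p = 0.0917). The VIM, ZEB2 and TWIST1 promoters were not called, and the SNAI1 promoter was below the fold filter.

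Away from starts the balance was the other way. Of 26 tested distal intervals, all in mesenchymal loci, 3 were higher and 9 lower, against 14.5% and 24.4% of 20881 tested intervals away from starts. The median shift of the 26 was -0.22, and that of all tested intervals away from starts was -0.12. None of the 12 distal intervals of the epithelial loci passed the filter. Below, the highest distal interval of a locus is the one with the highest mean percentile over the 6 libraries.

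ZEB1 showed both directions within its own locus. Its promoter was called higher, while the interval at -19.9 kb from the start had the largest fall of the 44, from percentiles of 80.9, 77.1 and 78.0 in WT to 38.5, 43.0 and 40.3 in CREBBP-KO. The fold there was 9.04, 8.00 and 8.49 against 3.55, 3.76 and 3.59, far outside the spread between libraries (shift -2.18 ± 0.28, SE; limma, adjusted p = 9.55e-06). This interval passed the fold filter through WT alone. In intron 1, the interval at 62.6 kb, which overlaps another transcript start of the gene, fell from 78.2, 73.0 and 80.0 to 61.0, 64.0 and 62.1 (shift -1.27 ± 0.27, SE; limma, adjusted p = 0.00118). It too passed the filter through WT alone, as its fold was 4.76 in CREBBP-KO 1.

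The highest distal interval of ZEB1 lay in the same intron at 107.1 kb, and its percentiles were 93.5, 92.8 and 82.3 in WT and 87.6, 77.1 and 78.3 in CREBBP-KO. It was called lower at -0.79 ± 0.22 (SE; limma, adjusted p = 0.00866), but the call was lost without WT 1 (-0.64) or without CREBBP-KO 2 (-0.64), and when ranks were taken from -log10 p (-0.42; limma, adjusted p = 0.0956).

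VIM also had a promoter that was not called and distal intervals that fell. The interval at -21.6 kb went from 93.6, 95.4 and 91.4 in WT to 80.8, 81.3 and 79.7 in CREBBP-KO, with no overlap (shift -1.13 ± 0.18, SE; limma, adjusted p = 7.38e-05). The interval at -13.1 kb had the highest mean percentile of all distal intervals of the 10 loci over the 6 libraries, although within CREBBP-KO the SNAI2 interval at 18.1 kb was higher, at a mean of 97.1 against 96.2. In WT, its fold of 21.7, 21.0 and 19.0 was above that of the VIM promoter in the same libraries. In CREBBP-KO its fold was 19.3, 20.9 and 17.2, below that of the promoter. It was called lower (shift -0.44 ± 0.17, SE; limma, adjusted p = 0.0423), and not when WT 1, WT 2, CREBBP-KO 1 or CREBBP-KO 3 was left out (-0.41, -0.38, -0.48 and -0.31), nor without a trend (limma, adjusted p = 0.105) or with a fold minimum of 3 (adjusted p = 0.0535).

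The 200 bases around the summits of the ZEB1 interval with the largest fall and of the VIM interval with the highest mean percentile are printed from hg38, plus strand, with E-boxes CAGGTG or CACCTG in capitals.
ZEB1 at -19.9 kb, chr10:31299212-31299411: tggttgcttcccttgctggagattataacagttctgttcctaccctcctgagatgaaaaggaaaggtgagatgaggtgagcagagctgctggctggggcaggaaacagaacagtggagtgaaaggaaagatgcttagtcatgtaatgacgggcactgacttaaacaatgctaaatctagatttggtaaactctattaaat
VIM at -13.1 kb, chr10:17215063-17215262: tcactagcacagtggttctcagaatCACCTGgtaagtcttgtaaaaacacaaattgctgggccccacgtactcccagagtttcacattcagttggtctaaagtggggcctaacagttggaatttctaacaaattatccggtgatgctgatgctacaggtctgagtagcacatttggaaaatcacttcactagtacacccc
Of the 26 tested distal intervals, 5 held an E-box in this window, against 13.6% of the 21847 tested intervals whose highest summit lay more than 1 kb from every start, a set that also takes in intervals reaching into a promoter window, unlike the 20881 above. The other motifs searched on both strands were TGANTCA (AP-1), in 1 of the 26 and 6.596% of all, GGAATG (TEAD), in 3 of the 26 and 10.95% of all, and AACCGGTT (GRHL), in 0 of the 26 and 0.0137% of all.

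TWIST1, whose annotated gene body extends over 96.6 kb and whose locus includes parts of HDAC9 and FERD3L, also moved in both directions. The interval 9.90 kb from its start rose from percentiles of 74.7, 66.5 and 62.1 in WT to 87.1, 88.4 and 89.4 in CREBBP-KO (shift 1.16 ± 0.23, SE; limma, adjusted p = 0.000649). The highest distal interval, at 108.0 kb, fell from 91.3, 95.1 and 89.6 to 74.8, 74.9 and 78.7 (shift -1.32 ± 0.20, SE; limma, adjusted p = 5.72e-05). Neither pair of genotypes overlapped.

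At SNAI2 the highest distal interval, 18.1 kb from the start, had percentiles of 94.7, 86.2 and 94.4 in WT and 98.2, 96.2 and 97.0 in CREBBP-KO. It was called higher (shift 0.54 ± 0.19, SE; limma, adjusted p = 0.0276), and not without WT 2, CREBBP-KO 1 or CREBBP-KO 3 (0.30, 0.44 and 0.55), nor without a trend (limma, adjusted p = 0.0927). The interval at 29.5 kb fell from 90.2, 91.1 and 86.1 to 81.2, 78.6 and 81.4 (shift -0.77 ± 0.19, SE; limma, adjusted p = 0.00335).

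ZEB2 (chr2:144364364-144521057, minus strand) had 12 tested intervals, of which 1 was higher and 2 lower. The interval in intron 3 at 92.6 kb rose from percentiles of 54.0, 63.8 and 51.4 to 79.2, 72.9 and 75.7 (shift 0.88 ± 0.28, SE; limma, adjusted p = 0.0171), a call lost without CREBBP-KO 1 (0.75) or CREBBP-KO 3 (0.81). It passed the fold filter through CREBBP-KO alone, with a fold of 4.62, 5.63 and 4.56 in WT. The interval at -33.0 kb fell by 0.65 ± 0.21 (SE; limma, adjusted p = 0.0170), a call lost without WT 2 (-0.53) or CREBBP-KO 2 (-0.45) and with ranks from -log10 p (-0.48; limma, adjusted p = 0.0560).

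At SNAI1 the single call lay at -46.3 kb, at a start of RNF114, where the rank fell by 0.45 ± 0.17 (SE; limma, adjusted p = 0.0441). It was kept only when WT 1 was left out: without WT 2, WT 3, CREBBP-KO 1, CREBBP-KO 2 or CREBBP-KO 3 the shift was -0.39, -0.38, -0.50, -0.42 or -0.43 and not called, and the call was also lost without a trend and with ranks from -log10 p (limma, adjusted p = 0.0882 and 0.0571). The highest distal interval, also in RNF114, was not called (limma, adjusted p = 0.185). CDH2 had 4 tested distal intervals, of which limma called 0, also at an unadjusted p under 0.05. With ranks from -log10 p it called 1 higher, in intron 2 at 111.9 kb (shift 0.95; limma, adjusted p = 0.0164, against 0.65 and 0.114 from the fold), and without CREBBP-KO 3 it also called 1. The highest of them, at -26.8 kb, had percentiles of 79.2, 84.2 and 70.4 in WT and 77.0, 83.8 and 83.3 in CREBBP-KO.

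Medians over the members of the median distal percentile were 33.9, 5.67 and 22.1 for the epithelial genes in WT and 44.7, 21.0 and 38.9 in CREBBP-KO, and 52.1, 50.4 and 44.6 against 59.8, 43.0 and 43.2 for the mesenchymal genes. The epithelial median percentile was the lower of the pair in all 6 libraries. The mean difference, epithelial minus mesenchymal, was -28.5 points in WT and -13.7 in CREBBP-KO, with overlapping libraries (exact permutation test, p = 0.2). The change between genotypes was 14.7 points, but 6.59 without WT 2 and 6.91 with a flank of 25 kb. In fold the difference was -1.23 ± 0.588 (SD, n = 3) among WT and -0.452 ± 0.400 (SD, n = 3) among KO libraries, which did not overlap (exact permutation test, p = 0.1), and in CREBBP-KO 3 it was 0.00553, with the epithelial median marginally the higher. The change in fold was 0.775, but 0.436 without WT 2, 0.367 with a flank of 25 kb and 0.439 with all distal peaks pooled. CDH1 had no distal peak in WT 1 and WT 3 and GRHL2 none in 4 libraries, so the epithelial medians rest on 1 to 3 genes. In WT 1 and WT 3 the epithelial value is that of the ESRP1 locus alone, whose peaks lay in or at the start of the neighbouring gene DPY19L4.

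The microRNAs of the miR-200 family repress ZEB1 and ZEB2 and are held low by them, so their genes were examined beside the members. Their mature sequences (RefSeq) are shown with the seed, bases 2 to 8, in capitals, and fall into a group with the seed AAUACUG and a group with AACACUG.
hsa-miR-200b-3p: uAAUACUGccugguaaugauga
hsa-miR-200c-3p: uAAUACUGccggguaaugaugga
hsa-miR-429: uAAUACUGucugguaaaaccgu
hsa-miR-200a-3p: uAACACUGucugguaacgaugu
hsa-miR-141-3p: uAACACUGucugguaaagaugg
The host gene of miR-200c and miR-141 on chromosome 12, MIR200CHG, had a promoter peak in all 6 libraries, with a mean percentile of 72.4 in WT and 78.0 in CREBBP-KO, and it was not called (limma, adjusted p = 0.697). The nearest peak to miR-200b, miR-200a and miR-429 on chromosome 1 lay 8.36 to 10.42 kb away in every library.

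Other genes of both states were counted from 4 lists. Of 20 genes for epithelial junctions and keratins, 9 had a promoter peak in all 6 libraries and 4 had none (CLDN3, CLDN4, CDH3 and KRT19), and of 11 epithelial regulators 5 had one in all 6 and 3 had none (OVOL1, OVOL2 and ELF3). Of the 11 tested promoters of these lists limma called 0 in either direction, and at an unadjusted p under 0.05 there were 2 higher (EHF and ESRP2) and 0 lower. Some promoters outside the test differed between genotypes. PKP2 had percentiles of 2.43, 0.375 and 0.317 in WT and 69.7, 67.7 and 51.2 in CREBBP-KO. DSP had no peak in WT and 71.5, 54.5 and 52.8 in CREBBP-KO, and EPCAM had means of 5.27 and 33.8. In the other direction, TP63 had a peak in 2 WT libraries and JUP in 1, and both in no CREBBP-KO library. Of 18 genes for mesenchymal matrix and cytoskeleton, 17 had a promoter peak in all 6 libraries (CDH6 had none), and of the 17 tested, 8 were higher in CREBBP-KO and 0 lower by limma (1 lower, TAGLN, at an unadjusted p under 0.05), where 26.9% and 8.32% of all tested promoter intervals of protein-coding genes were. Of 16 mesenchymal regulators and signals, 14 had one in all 6 and 1 (SOX9) none, and of the 13 tested, 4 were higher and 2 lower, against 26.9% and 8.32% of all tested promoter intervals.

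The largest rise of the matrix list was at COL5A1, a fibrillar collagen gene, from a mean percentile of 74.8 to 93.7 (shift 1.23 ± 0.19, SE; limma, adjusted p = 6.18e-05). COL1A1, the main fibrillar collagen, and FN1, which encodes fibronectin, followed with shifts of 0.88 and 0.82. Among the regulators, the ligand gene TGFB2 rose by 0.93 and the AP-1 subunit gene FOSL1 fell by 0.99 (limma, adjusted p = 0.0142 and 0.000283). PRRX1, a homeobox gene of mesenchyme, fell by 0.97. By percentile, the TGFB2 promoter peak was below the fold minimum of the test in every WT library. The PRRX1 promoter peak was below it in every CREBBP-KO library. The plot of the 4 lists sets WT against CREBBP-KO.

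**Figure D4:**
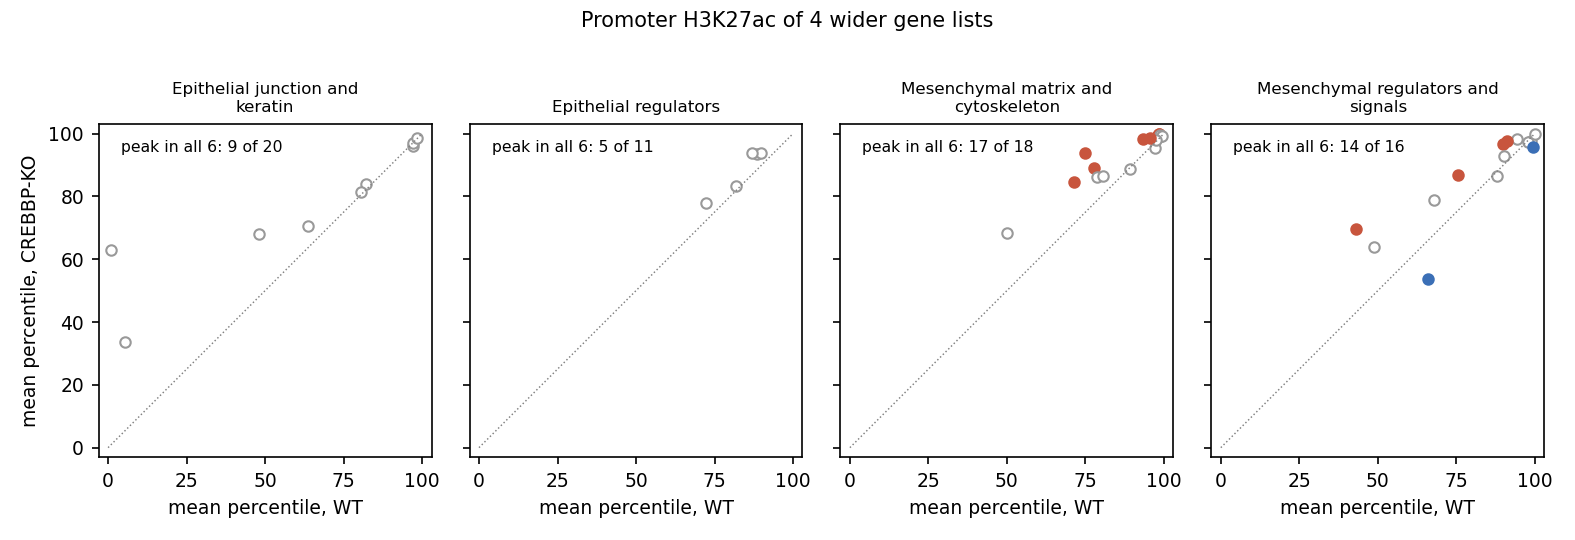
Mean percentile of the promoter peak over 3 WT libraries (horizontal axis) against the mean over 3 CREBBP-KO libraries (vertical axis) for each gene with a promoter peak in all 6 libraries, in 4 gene lists, with a dotted line of equality. Filled red points were called higher in CREBBP-KO, filled blue points lower, and open points were not called or not tested. Of the matrix list 17 of 18 genes are drawn, and of the junction and keratin list 9 of 20.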

How the data were processed

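H3K27ac ChIP-seq of 3 WT and 3 CREBBP-KO libraries was analysed; the 2 input libraries were not used here. According to the methods, the authors aligned reads to hg38 within nf-core's ChIP-seq workflow (BWA in the submitters' processing notes) and called narrow peaks per library with MACS2. The methods state an average depth and also a run of the workflow on reads downsampled to a common maximum. Which of these runs gave the lists, and which input was the control, is not given in the sources used here. The deposited peak height is a linear fold ratio over local background, and each peak also carries a -log10 p and a -log10 q as deposited. The integer score that the authors' caller wrote beside them was left aside.

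Loci and starts came from GENCODE release 44. Overlapping or adjoining peaks of the 6 lists were joined into merged intervals. Values with 1 number per library were tested by exact permutation, two-sided, and ranks with limma (lmFit, eBayes with a trend, Benjamini-Hochberg over all 34847 tested intervals). The code was tested on simulated data. Lists carry no reads, so the depth behind each list is unknown and no counting interval was computed. Ranks are relative within a list, so a change shared by all peaks is not seen.

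The members and lists were chosen with earlier results of these data known. 1 gene of the colonic marker list is not reported here. Besides the 10 members, the text names own promoter intervals, the largest called shift in each direction and the highest distal interval per locus, up to 3 called promoters per direction of a list, and genes of a list without a promoter peak. FAP, CD68, MUC2, EPCAM, KRT8, LGALS4, KRT18, EHF, ESRP2, TAGLN, PKP2, DSP, TP63, JUP, the CDH2 interval at 111.9 kb and the low CDH1 intervals were named after their values were seen. Replicate numbers did not pair the samples: same-numbered libraries deviated together with correlations of 0.0106, 0.0142 and 0.0281. Versions were R 4.3.3 with limma 3.58.1, and scipy 1.17.1, matplotlib 3.10.9 and pandas 2.3.3 under Python 3.11.15.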

Additional observations from a re-analysis of the deposited data

Results flagged for a closer look

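Peaks listed for each of the 3 CREBBP-KO libraries but for none of the WT libraries, with a fold under 5 and therefore outside the rank test, were looked at separately. The intervals found in all 3 WT and no CREBBP-KO libraries, 1 at ZEB1 and 1 at TWIST1, were not looked at in this way. In the CDH1 locus there were 3, at 62.9, 65.5 and 110.4 kb from the start, with mean CREBBP-KO percentiles of 33.7, 44.3 and 18.9. CDH2 had 1, at 254.9 kb and at another transcript start, with a mean of 39.0. ZEB2 had 1 in intron 2, at 48.8 kb, with a mean of 24.9, and SNAI1 had 1 at 44.8 kb with a mean of 27.5. By these means each lay in the lower part of the lists, although single libraries stood higher. CDH1 reached 61.9 at 65.5 kb in CREBBP-KO 1 and 59.7 at 62.9 kb in CREBBP-KO 3, and CDH2 reached 57.3 in CREBBP-KO 2. The CREBBP-KO lists are longer than the WT lists, and the part of list length in these peaks was not tested.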

How the results depend on the processing

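Under the alternatives that used all 6 libraries, the number of member intervals higher in CREBBP-KO was 5 to 8 (7 as reported). The number lower was 8 to 12 (11 as reported), except that ranking by -log10 p gave 6. The cause of that was not tested. The number tested changed as well, so similar counts stand for unlike shares. A fold minimum of 10 gave 5 higher and 8 lower of 22, against 3423 and 3295 of all 15287 tested intervals. A fold minimum of 3 gave 8 and 12 of 67, against 6615 and 6433 of all 50729. Leaving out 1 library gave 5 to 8 higher and 8 to 10 lower. With the replicate number as a block the counts were 7 and 11 and no call of a named interval changed.

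Directions turned only for small differences. Ranking by -log10 p turned the shifts of a ZEB2 promoter interval at 67.2 kb (-0.0655) and of the TWIST1 promoter (0.185), neither of them called. With 1 library left out these ranged from -0.246 to 0.291 and from -0.192 to 0.128, and the highest distal interval of CDH2 from -0.166 to 0.197. The TWIST1 promoter percentile difference was -0.0509 with lists of equal length, and -1.06 to 3.59 with 1 library left out.

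The difference in peaks per locus, CREBBP-KO minus WT, was -0.667 for ESRP1 with -log10 q of at least 5 and -1.0 with equal list lengths, 0.333 for VIM with a 25 kb flank and 0.0 with that q filter, and 0.333 and 0.667 for ZEB1 with flanks of 25 and 100 kb. With 1 library left out it was -0.167 to 0.833 for ESRP1, -0.667 to 0.333 for VIM and -3.17 to 3.33 for ZEB1. The mean over 6 libraries of epithelial minus mesenchymal promoter percentile was -92.2 with the q filter (-95.0 as reported, as 0 stands for no peak). With the highest distal peak of each gene in place of its median, the distal differences were -44.6 percentile points and -9.52 in fold, against -21.1 and -0.840. Leaving out genes without a promoter peak gave no value, as no epithelial gene had one. The lists give no read counts, so a missing peak sets no limit on the signal.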
